A study of Rattus norvegicus with 91 samples.

Results

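The ionotropic glutamate receptor genes examined here were the 4 AMPA receptor subunit genes Gria1, Gria2, Gria3 and Gria4 and the 6 NMDA receptor subunit genes Grin1, Grin2a, Grin2b, Grin2c, Grin2d and Grin3a. Their members on the array were taken by annotation, as every probe set whose annotation gave exactly 1 gene symbol equal to one of these 10. The 10 genes are among 14217 with such a probe set, and they had 19 of the 31042 probe sets that were not controls, 8 for AMPA and 11 for NMDA subunits, with 1 to 3 probe sets per gene. The study measured gene expression in the ventral tegmental area (VTA) of rat lines selectively bred for alcohol consumption, with 1 Affymetrix array per animal and 91 arrays in all. The lines form 5 pairs, and in each pair a line bred for high consumption is set against a line bred for low consumption. There were 8 HAD1 and 10 LAD1 arrays, 8 HAD2 and 9 LAD2 arrays, 9 P and 10 NP arrays, 10 AA and 10 ANA arrays, and 8 sP and 9 sNP arrays, with the high-consumption line of each pair given first. The HAD and LAD lines are replicate selections, numbered by replicate. The animals' age and any alcohol exposure are not described in the sources used here. Within a single pair, selection and drift cannot be told apart.

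AMPA receptors are tetramers of the proteins encoded by Gria1 to Gria4 and carry most fast excitatory transmission. The Gria2 protein, once its transcript has been edited, limits the calcium permeability of the receptor that contains it. NMDA receptors need the obligatory glycine-binding subunit encoded by Grin1, which is joined by glutamate-binding subunits encoded by the Grin2 genes or by a further glycine-binding subunit encoded by Grin3a, whose presence lowers calcium permeability. In dopamine neurons of the VTA, both receptor families take part in the synaptic plasticity that follows exposure to drugs of abuse.

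Several features of the arrays bear on every value below. Values were log2 signals made by the authors, and their distributions differed between pairs, so levels were compared only within a pair and never between different probe sets. Clustering of the value distributions put the 18 arrays of HAD1/LAD1 in a set of their own, and likewise the 17 of HAD2/LAD2. The 19 arrays labelled P or NP clustered with 1 labelled AA, and the 17 labelled sP or sNP with AA 19 and ANA 20. The remaining 17 arrays labelled AA or ANA formed the last set. For the 56 arrays outside the HAD and LAD lines the groups are therefore written as arrays labelled with a line, whether their labels are misplaced was not tested, and the HAD/LAD pairs are described first. Single arrays also stood apart. Without LAD1 37, 1377 probe sets were called between HAD1 and LAD1, against 1070 with it, and the lines did not overlap at 419 probe sets, against 51 with it, or 0.164%. Whether the label of LAD1 37 is misplaced was not tested. P 10 and NP 8 had dopamine neuron marker means of 7.24 and 7.75 on the log2 scale, while the next lowest array labelled P or NP had 8.53 and the highest 11.07, and Th, which encodes tyrosine hydroxylase, was 9.12 on P 10 and 8.23 on NP 8 against line medians of 14.08 in arrays labelled P and 13.65 in those labelled NP. In the HAD and LAD lines the dopamine markers were present on all arrays, with Th between 13.32 and 14.69. The tissue is bulk, so fewer cells of a type and less RNA per cell cannot be told apart.

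The HAD2/LAD2 comparison asks whether subunit expression differs with the direction of breeding. The Grin3a probe set was higher in HAD2, and it was the only subunit probe set of the 19 called in this pair. HAD2 arrays had Grin3a signals with a lowest value of 7.33, a median of 7.64 and a highest value of 8.25, against 6.35, 6.78 and 7.31 in LAD2 arrays. The lowest HAD2 array lay above the highest LAD2 array, so the lines did not overlap. Means were 7.65 ± 0.28 (SD, n = 8) in HAD2 and 6.79 ± 0.36 (SD, n = 9) in LAD2. The log2 difference was 0.86 ± 0.16 (standard error), with a 95% interval from 0.55 to 1.17, or 1.81-fold, and an adjusted p of 3.05e-05 by limma. The LAD2 mean lay below 7.02, the 40th percentile of all values, so the fold is set against a dim signal. By that test 4.25% of all probe sets were called in this pair, and 1.51% had lines that did not overlap. An exact permutation test of the difference of means, 2-sided, gave p = 8.23e-05 and an adjusted p of 0.000411 over the 5 pairs. With lines that do not overlap, this p lies at or near the lowest the test can give for 8 and 9 arrays. It therefore repeats the lack of overlap and is no separate evidence. Its adjustment does not cover the choice of Grin3a among the 19 probe sets. With the pair fitted alone the adjusted p was 0.000701. The difference was called with each of the 91 arrays left out in turn, with differences from 0.77 to 0.92. Only the 17 arrays of this pair can move the difference when left out, while the others change the pooled spread.

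Between HAD1 and LAD1, Grin3a had the opposite sign and a wide spread. HAD1 arrays ran from 7.01 through a median of 7.56 to 8.22, and LAD1 arrays from 6.66 through 7.99 to 8.53, so the lines overlapped over most of their range. Means were 7.57 ± 0.37 (SD, n = 8) in HAD1 and 7.95 ± 0.53 (SD, n = 10) in LAD1. The log2 difference was -0.38 ± 0.15 (standard error), with a 95% interval from -0.68 to -0.083 and an adjusted p of 0.21, and it was not called; 0 of the 19 subunit probe sets were called in this pair, where 3.45% of all probe sets were. The lowest LAD1 value was that of LAD1 37, and the next lowest LAD1 array had 7.72. Signals in the LAD lines also fell with animal number. LAD1 31 to 33 had 8.38 to 8.53, LAD1 34 to 36 7.91 to 8.15 and LAD1 38 to 40 7.72 to 7.84. LAD2 11 to 13 had 7.13 to 7.31 and LAD2 17 to 20 had 6.35 to 6.78. The HAD lines gave no such steps, the fit did not include animal number, and the cause was not tested. Without LAD1 37 the LAD1 mean was 8.09, the difference was -0.53 ± 0.14 and the adjusted p was 0.00917, with lines that still overlapped and 4.44% of all probe sets called. With the pair fitted alone and without LAD1 37, a step chosen after seeing the data, the adjusted p was 0.0394. The call between HAD1 and LAD1 thus depends on leaving out this array. Of the 91 arrays, LAD1 37 was the only one whose removal brought a call in this pair, where only 18 arrays can move the difference.

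The Grin3a difference itself differed between the replicate pairs. HAD1/LAD1 minus HAD2/LAD2 was -1.24 ± 0.22 on the log2 scale, with an adjusted p of 2.07e-05, in a contrast that called 3.36% of all probe sets. Without LAD1 37 it was -1.38 ± 0.20 with an adjusted p of 8.08e-08, among 3.81% called. None of the other 18 subunit probe sets was called in this contrast, and their smallest adjusted p was 0.83. The mean of both HAD/LAD differences of Grin3a was 0.24 ± 0.11, with an adjusted p of 0.31, where 4.34% of all probe sets were called.

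**Figure D1:**
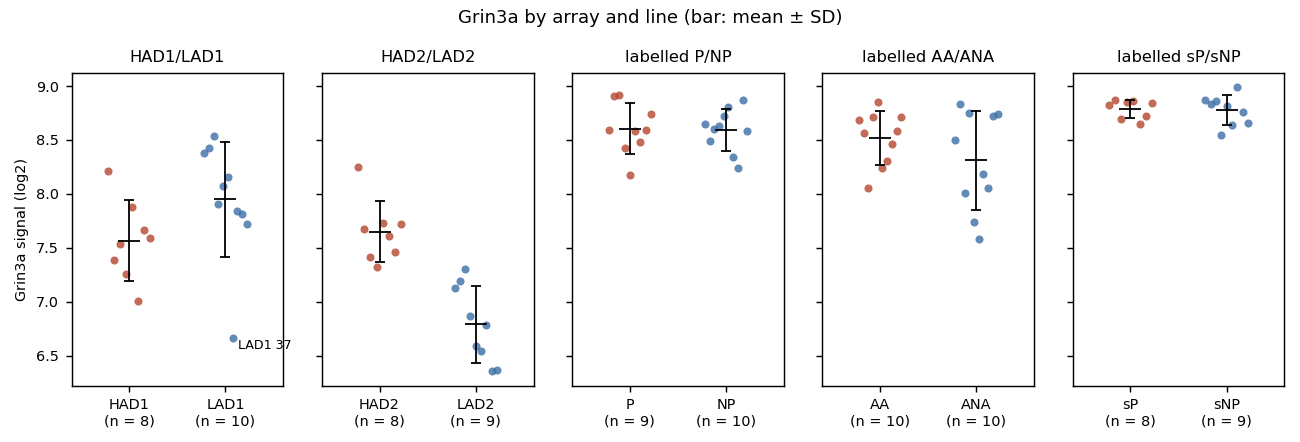
Grin3a log2 signal (vertical axis) on each array, by line, with the high-consumption line on the left of each pair and bars for the mean ± SD. HAD2 arrays lay between 7.33 and 8.25, all above the LAD2 arrays, HAD1 and LAD1 overlapped with LAD1 37 lowest at 6.66, and levels are not to be compared between panels.

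No measured gene near Grin3a in the genome was called in HAD2/LAD2, where 4.25% of all probe sets were. Among the 10 nearest genes on each side in the RefSeq annotation of the GRCr8 assembly, 6 had probe sets on the array, 8 in all. In HAD2/LAD2, Rnf20 and Ppp3r2, the nearest gene on each side, differed by 0.062 and 0.020 (2 probe sets) and by -0.068 on the log2 scale. On the side of Ppp3r2 no other of the 10 genes was measured, so that side is hardly covered. In HAD1/LAD1, where 3.45% of all probe sets were called, a single probe set of these neighbours was. It was 1372927_at of the mitochondrial ribosomal protein gene Mrpl50, at 0.94 with an adjusted p of 9.33e-08 by limma. The other Mrpl50 probe set differed by -0.14.

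The obligatory subunit gene Grin1 was measured by 2 probe sets and was called in neither HAD/LAD pair. Its probe set 1368572_a_at was 10.39 ± 0.12 (SD) in HAD2 and 10.32 ± 0.11 in LAD2, and 10.093 ± 0.13 in HAD1 and 10.097 ± 0.091 in LAD1. These differences of 0.063 and -0.0032 had 95% intervals of at most 0.13 to either side, among the narrowest of the family. The probe set 1389900_at was 0.014 ± 0.099 (standard error) higher in HAD2 and 0.15 ± 0.097 higher in HAD1, neither called.

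Among the glutamate-binding Grin2 genes, the cerebellar and glial-enriched Grin2c came nearest to a call. HAD2 arrays had Grin2c signals of 9.76 at the lowest, 10.03 at the median and 10.19 at the highest, against 9.54, 9.77 and 10.09 in LAD2 arrays. The lines overlapped over most of this range, and the difference of 0.19 ± 0.085 (standard error) had an unadjusted p of 0.0311 and an adjusted p of 0.327 by limma. In HAD1/LAD1 it was 0.085 ± 0.083. Averaged over both HAD/LAD pairs it was 0.14 ± 0.059, and its adjusted p of 0.27 was the smallest of the 19 in that contrast.

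Grin2a, which encodes a subunit that gains weight over development, had 3 probe sets. In HAD2/LAD2 they differed by 0.025, 0.058 and 0.016, and in HAD1/LAD1 by -0.015, -0.17 and -0.00056, with adjusted p-values of at least 0.798. The probe set 1380861_at was the most variable of the 3, from 9.37 to 10.62 across LAD1 arrays. Without LAD1 37, its difference in HAD1/LAD1 was -0.26 ± 0.13 with an adjusted p of 0.396. Grin2b encodes the subunit that prevails early in development. Its probe set 1369745_at had the smallest errors of all 19, and differed by 0.022 ± 0.052 in HAD2/LAD2 and 0.074 ± 0.051 in HAD1/LAD1. The other, 1391708_at, differed by 0.097 ± 0.14 in HAD2/LAD2 and -0.086 ± 0.14 in HAD1/LAD1. Grin2d, a subunit of receptors with slow decay and weak magnesium block, differed by 0.039 and -0.053 in HAD2/LAD2 and by 0.082 and -0.0029 in HAD1/LAD1 over its 2 probe sets. None of these differences was called.

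No AMPA subunit probe set was called in either HAD/LAD pair. Gria1, which encodes a subunit inserted into synapses during potentiation, had HAD2 signals of 8.89 at the lowest, 9.01 at the median and 9.50 at the highest, against 8.32, 8.93 and 9.40 in LAD2. The lines overlapped and the difference was 0.21 ± 0.17 (standard error), the largest uncalled one of this pair, with an adjusted p of 0.818. In HAD1/LAD1 Gria1 differed by 0.059 ± 0.16. Gria2, whose product limits calcium entry, differed by 0.077 ± 0.13 and 0.078 ± 0.18 in HAD2/LAD2 at 1368401_at and 1387171_at. In HAD1/LAD1 the corresponding values were 0.13 ± 0.13 and 0.037 ± 0.17. The 2 probe sets thus gave the same sign in both pairs, with errors, pooled over the 10 lines, as large as the differences. With each pair fitted alone the errors were smaller, and none of these differences was called. At 1368401_at they were 0.076 in HAD2/LAD2 and 0.074 in HAD1/LAD1, and at 1387171_at 0.11 and 0.092.

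The 2 probe sets of Gria3 disagreed in sign in HAD2/LAD2, at 0.10 ± 0.20 for 1368691_at and -0.14 ± 0.14 for 1376892_at. The probe set 1368691_at had the widest spread of the 19 in both HAD/LAD pairs, with HAD1 arrays from 8.54 to 9.85 and LAD1 arrays from 7.998 to 9.83. Its difference of 0.24 ± 0.19 in HAD1/LAD1 had an adjusted p of 0.808. Its signal also fell with animal number, with HAD1 21 to 23 and LAD1 31 to 33 above their line means. HAD1 27 to 30 and LAD1 37 to 40 lay below them. In the other pair HAD2 2 to 6 and LAD2 11 to 14 lay above, and HAD2 7 to 10 and LAD2 15 to 20 below. The cause of this order was not tested. Gria4, the subunit gene tied to fast-decaying currents, had 3 probe sets with differences of 0.099, -0.065 and 0.12 in HAD2/LAD2 and -0.13, 0.098 and -0.093 in HAD1/LAD1. Each of the 3 changed sign between the pairs, and none of these changes passed the test of the difference between pairs.

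**Figure D2:**
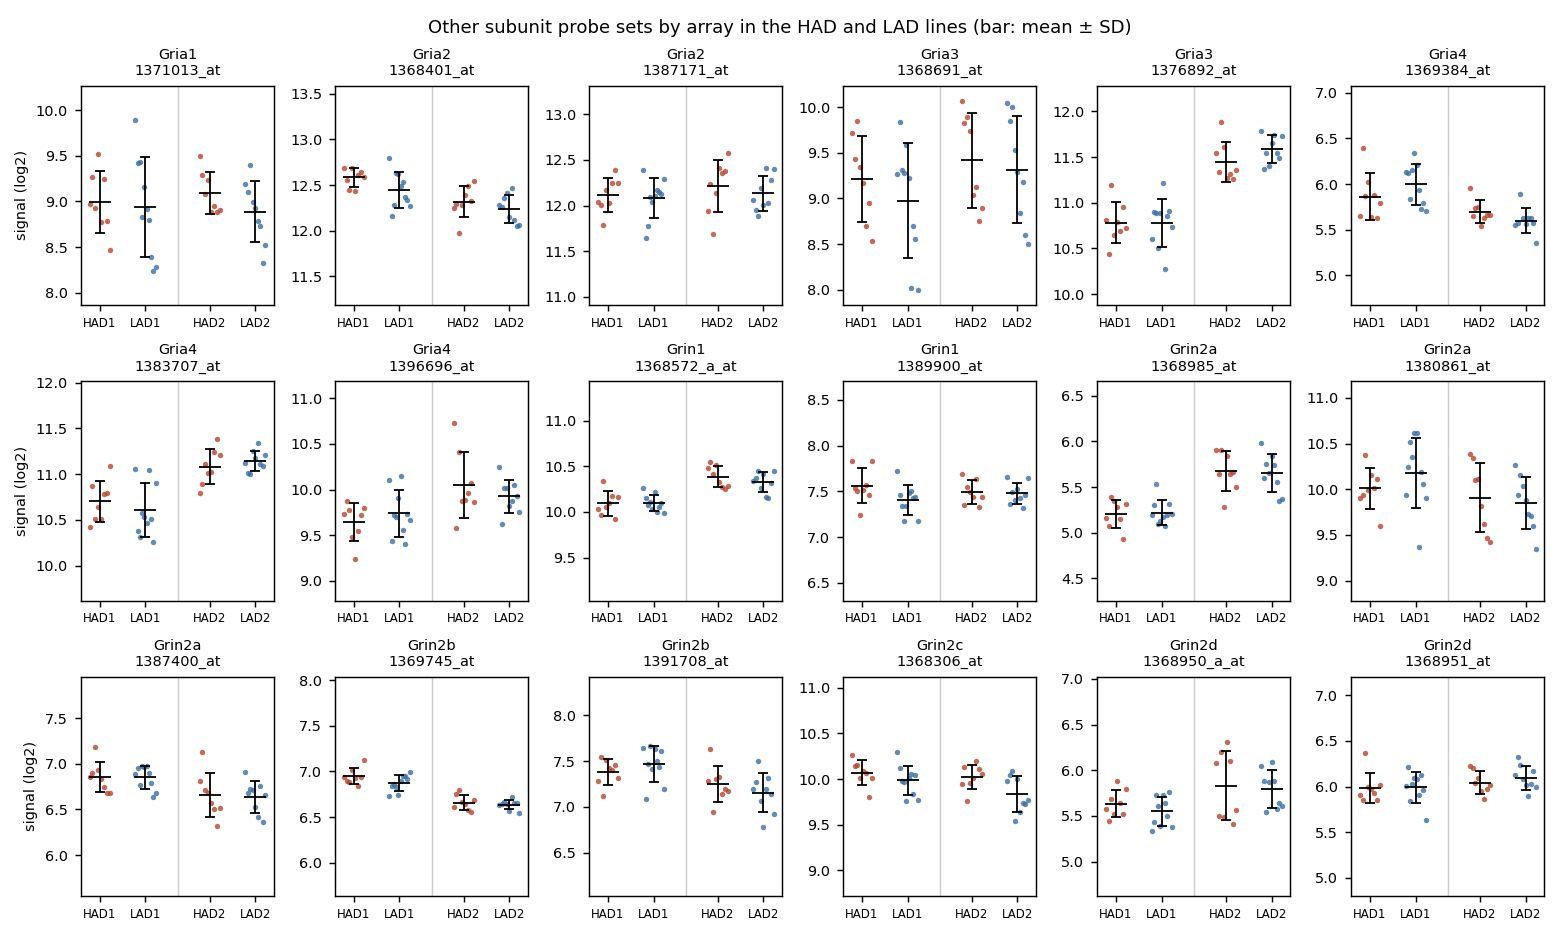
Log2 signal (vertical axes) on each array for the 18 subunit probe sets other than Grin3a in HAD1, LAD1, HAD2 and LAD2, with bars for the mean ± SD. In each panel the HAD and LAD arrays of a pair overlap, as for Grin2c, where HAD2 ran from 9.76 to 10.19 and LAD2 from 9.54 to 10.09.

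The precision of the null results can be given as intervals. Over the 19 probe sets and 5 pairs there were 95 differences, of which 1 was called, beside 3302 of 155210 over all probe sets and the same 5 pairs, and 7 had an unadjusted p under 0.05 by limma, where 8.67% of all did. The counts are small and the 95 differences are not independent, so nothing particular to the subunits is read from these shares. The 95% interval lay within 0.5 of zero on the log2 scale for 85 of the 95 differences and within 1 of zero for 94. The farthest bound of an uncalled difference was 0.69, for Gria2 at 1387171_at in the arrays labelled P and NP. These intervals use a spread pooled over the 10 lines, and this probe set had a pooled SD of 0.72 in that pair against 0.15 to 0.24 in the others. With each pair fitted alone, 82 intervals lay within 0.5 of zero and 93 within 1, and the bound for this Gria2 probe set was 1.01. The median difference of the 19 was 0.063 in HAD2/LAD2 and 0.00058 in HAD1/LAD1, beside -0.00052 and 0.00073 over all probe sets. The median pooled SD between animals of a line was 0.21 in HAD2/LAD2 and 0.18 in HAD1/LAD1 over the subunit probe sets, beside 0.14 over all probe sets in each pair.

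**Figure D3:**
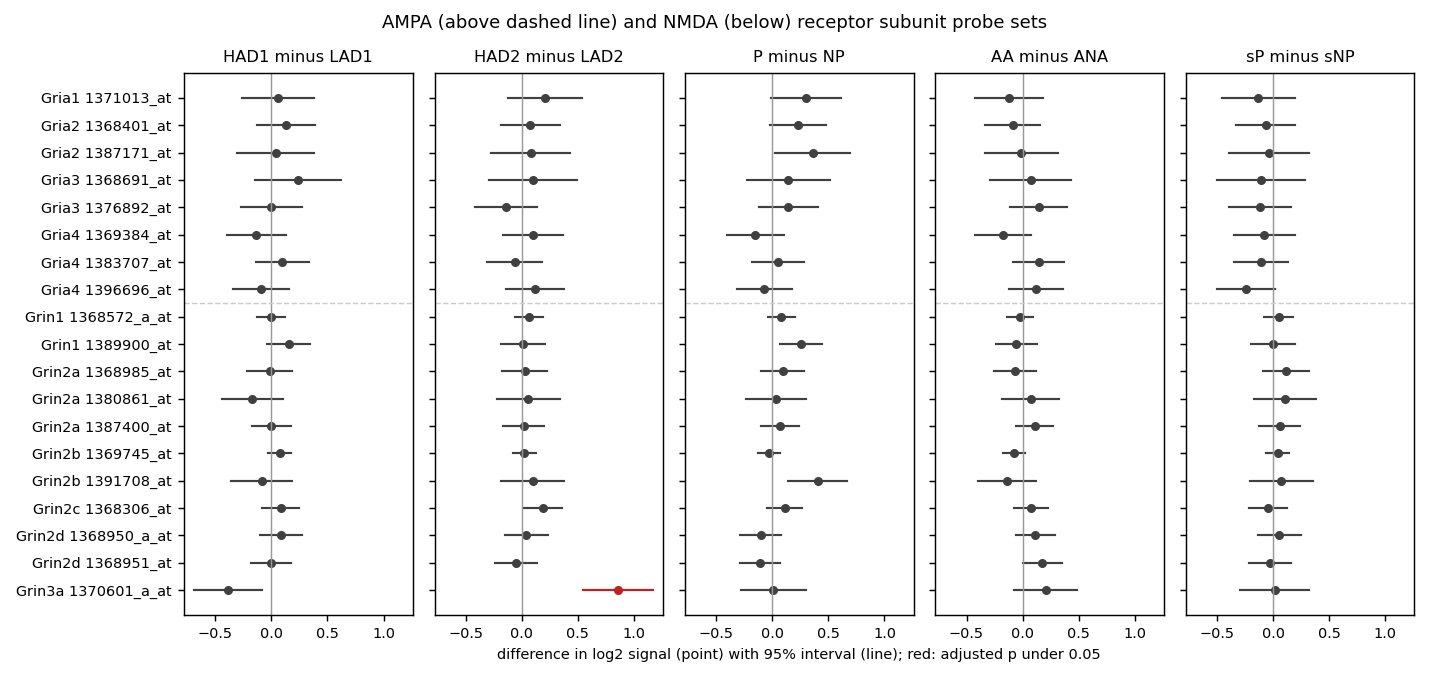
High-consumption minus low-consumption line, as a difference in log2 signal (horizontal axis), for each of the 19 subunit probe sets in each pair, with 95% intervals from the limma fit. Grin3a in HAD2/LAD2, at 0.86, is the only one with an adjusted p under 0.05.

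Between the arrays labelled P and NP, no subunit probe set was called, and no probe set of the array was (0%), while 1811 had an unadjusted p under 0.05 by limma (5.83%), 3 of them subunits. Grin2b at 1391708_at was 0.40 ± 0.13 higher in arrays labelled P, Gria2 at 1387171_at 0.36 ± 0.17 and Grin1 at 1389900_at 0.26 ± 0.094, with adjusted p-values of at least 0.813. For Grin2b, the arrays labelled P had 8.23 at the lowest, 8.76 at the median and 10.14 at the highest, against 7.87, 8.63 and 9.22 in those labelled NP. The highest value of each of the 3 among the arrays labelled P was that of P 10, which also held the highest Gria1 signal, 10.80, and the highest Gria2 signal at 1368401_at, 13.70. Without P 10 and NP 8, a step chosen after seeing the data, the differences were 0.28 for Grin2b, 0.046 for Gria2 and 0.15 for Grin1. That of Grin2b still had an unadjusted p of 0.0213 by limma. With array weights the differences were 0.47 for Grin2b and 0.45 for Gria2, both called, as given below beside the count over all probe sets. The part of tissue content in these differences was not tested. Grin3a differed by 0.0096 ± 0.15, with signals of 8.60 ± 0.24 (SD, n = 9) in arrays labelled P and 8.59 ± 0.20 (SD, n = 10) in those labelled NP.

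Between the arrays labelled AA and ANA, 0 of 19 subunit probe sets were called, where 2.94% of all probe sets were. Grin2d at 1368951_at was 7.40 ± 0.34 (SD) in arrays labelled AA and 7.23 ± 0.15 in those labelled ANA (n = 10 each), a difference of 0.17 ± 0.086 (standard error) with an adjusted p of 0.372. Grin3a was 8.52 ± 0.25 in arrays labelled AA and 8.31 ± 0.46 in those labelled ANA, a difference of 0.20 ± 0.14 with an adjusted p of 0.612. Within the 17 arrays that share a technical set, fitted alone, the Grin3a difference was 0.21 with an adjusted p of 0.628, and no subunit probe set was called. Between the arrays labelled sP and sNP, 0 subunit probe sets were called, as was 0% of all probe sets, and 495 had an unadjusted p under 0.05 by limma (1.59%), 0 of them subunits. No subunit had lines that did not overlap, beside 0.0258% of all probe sets for the labels AA and ANA and 0.00322% for sP and sNP. The subunit with the widest difference was Gria4 at 1396696_at, at -0.24 ± 0.13. Grin3a differed by 0.014 ± 0.16.

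Whether the difference depends on the pair was tested over all 5 pairs by a moderated F test. Grin3a passed with an adjusted p of 0.000298, where 5.72% of all probe sets passed. The other 18 subunit probe sets did not, and the smallest adjusted p among them was 0.321, for Grin2b at 1391708_at. Averaged over the 5 pairs, 0 subunit probe sets were called, where 1.49% of all probe sets were. An unadjusted p under 0.05 by limma was reached by 2 of the 19, where 9.48% of all probe sets reached it. Grin2c had the smallest adjusted p of that average, 0.416, at 0.082 ± 0.037.

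Genes that work with these receptors were read from lists of partners. Of 30 AMPA receptor auxiliary and trafficking genes, 24 had 35 probe sets on the array. In HAD2/LAD2, where 4.25% of all probe sets were called, none of these rose and 1 fell, Nptx1, which encodes a secreted neuronal pentraxin that clusters AMPA receptors. Nptx1 had HAD2 signals of 10.997 at the lowest, 11.10 at the median and 11.35 at the highest, against 11.53, 12.04 and 12.20 in LAD2. The difference was -0.81 ± 0.11, with an adjusted p of 1.86e-08, and its single probe set differed by 0.16 in HAD1/LAD1, which gave 0.96 ± 0.15 for the difference between the pairs (adjusted p 2.06e-06). The pentraxin receptor gene Nptxr differed in HAD2/LAD2 by -0.036 and 0.065 at its 2 probe sets, neither called. In HAD1/LAD1, where 3.45% of all probe sets were called, 1 probe set of the 35 rose and none fell. It belonged to Olfm1, which encodes an extracellular AMPA receptor interactor, and was 0.20 ± 0.055 higher in HAD1 with an adjusted p of 0.0186, while the other Olfm1 probe set differed by 0.19 and was not called. The medians of the list were -0.014 in HAD2/LAD2 and 0.044 in HAD1/LAD1.

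Of 30 NMDA receptor scaffold, kinase and co-agonist genes, 27 had 55 probe sets. In HAD2/LAD2, 2 of the 55 probe sets rose and none fell, beside 4.25% called over all probe sets. Both belonged to Src, a kinase that raises NMDA receptor current, and differed by 0.27 ± 0.077 and 0.31 ± 0.098, while the other 2 Src probe sets differed by 0.096 and -0.013. In HAD1/LAD1 1 of the 55 rose and none fell, beside 3.45% called over all probe sets. It was 1395468_at of Dlg4, which encodes the scaffold PSD-95, at 0.35 ± 0.093 with an adjusted p of 0.0122. The other 3 Dlg4 probe sets were lower in HAD1 by differences of -0.10, -0.12 and -0.16, none called. List medians were -0.0071 in HAD2/LAD2 and 0.022 in HAD1/LAD1. The array P 10 stood apart here too, with a list mean of 9.15 against 8.30 to 8.47 on the other arrays labelled P. Between arrays labelled P and NP, 17 of the 55 probe sets had an unadjusted p under 0.05 by limma, where 5.83% of all probe sets did. Without P 10 there were 4. The share over all probe sets without P 10 was not taken, so nothing particular to this list is read from the fall. No partner gene was called between the arrays labelled P and NP, AA and ANA, or sP and sNP, and none of the 6 measured kainate and delta receptor subunit genes was called in any pair.

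Markers of cell types were read beside these results. None of 25 dopamine neuron probe sets was called in any pair, and their mean per array ran from 9.50 to 10.25 in HAD2 and from 9.51 to 10.18 in LAD2, and from 9.56 to 10.02 in HAD1 and from 9.57 to 10.32 in LAD1. Over all probe sets, 4.25% were called in HAD2/LAD2 and 3.45% in HAD1/LAD1. Of 19 neuron probe sets, 1 was called in HAD2/LAD2, Map2 at 1368411_a_at (-1.98 ± 0.16), while the other Map2 probe set differed by 0.0084. Neuron marker means ran from 10.52 to 11.17 in HAD2 and from 10.88 to 11.22 in LAD2. The microglial receptor gene P2ry12 was higher in HAD2 at 2 of 12 microglial probe sets (0.53 and 0.54), and of 16 endothelial and pericyte probe sets 3 were higher, of Abcb1a (0.60), Abcc9 (0.44) and Rgs5 (0.35), and 1 lower, of Tek (-0.37). The astrocyte glutamate transporter gene Slc1a3 was higher in HAD2 at 1 of 20 astrocyte probe sets (0.58, adjusted p 1.48e-05), and the myelin gene Opalin was lower at 1 of 17 oligodendrocyte probe sets (-0.33, adjusted p 0.0446). Astrocyte marker means ran from 10.01 to 10.30 in HAD2 and from 9.91 to 10.08 in LAD2, and oligodendrocyte marker means from 11.05 to 11.45 in HAD2 and from 11.12 to 11.38 in LAD2. Means of the microglial markers ran from 7.64 to 8.09 in HAD2 and from 7.63 to 7.82 in LAD2, and of the endothelial and pericyte markers from 7.65 to 7.84 in HAD2 and from 7.62 to 7.68 in LAD2. Their part in the Grin3a difference was not tested.

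In HAD1/LAD1, where 3.45% of all probe sets were called, 6 marker probe sets were. They came from lists of 17 oligodendrocyte, 20 astrocyte, 12 microglial and 16 endothelial and pericyte probe sets, and the other marker lists had none. The myelin genes Cldn11 (1.128) and Mobp (0.30) and the endothelial receptor gene Tek (0.39) were higher in HAD1, and the glutamate transporter gene Slc1a2 (-0.45), the microglial receptor gene Cx3cr1 (-0.33) and the endothelial transporter gene Abcb1a (-0.53) were lower. Tek and Abcb1a thus had opposite signs in the 2 HAD/LAD pairs, and the test of the difference between pairs was passed by both (adjusted p 6.72e-09 and 1.49e-07 by limma). Between the arrays labelled AA and ANA, where 2.94% of all probe sets were called, 5 of 20 astrocyte probe sets were higher for the label AA, of Glul (0.39, 0.37 and 0.25), Aqp4 (0.37) and Slc1a2 (0.26). Cldn11 (0.51), Map2 at 1388152_at (0.18), Kcnj8 (0.32) and both called Abcb1a probe sets (0.41 and 0.28) were also higher, and none of the listed markers was called lower. No listed marker was called between the arrays labelled P and NP or sP and sNP.

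Some AMPA subunit probe sets moved with the dopamine marker mean across arrays of a pair, mainly on the arrays labelled P or NP. None passed for both measures below in HAD1/LAD1 or on arrays labelled sP or sNP. The marker mean is that of 25 probe sets of 17 genes on each array. Relations with the marker mean were examined after seeing the data, with line means removed, over the arrays of each pair that share a technical set. There were 95 relations, tested by permutation with 100000 resamples and adjusted over the 95, and 5 had an adjusted p under 0.05 for both Pearson's r and Spearman's rho. All 5 were AMPA subunits, and 3 of the relations were on arrays labelled P or NP. For r alone 7 passed, among them the NMDA subunit Grin1 at 1389900_at on arrays labelled P or NP (r = -0.62, adjusted p 0.0497 by permutation). Gria4 at 1383707_at in HAD1/LAD1 also passed for r alone (r = -0.67, adjusted p 0.0483 by permutation). Their rho values were -0.43 and -0.56, with adjusted p-values of 0.34 and 0.121. Many other probe sets of the array lay as far from 0 on the same arrays, and nothing particular to AMPA subunits is read from the count. On the 19 arrays labelled P or NP, Gria3 fell with the marker mean at both of its probe sets. At 1368691_at r was -0.69 and rho -0.82 (adjusted p 0.0361 and 0.00095), and r was -0.72 without P 10 and NP 8, the arrays farthest from the median. At 1376892_at r was -0.66 and rho -0.75 (adjusted p 0.0408 and 0.0104), and r was -0.68 without them. On these arrays 6.75% of all probe sets had an r at least as far from 0 as the Gria3 value at 1368691_at, and 8.81% as that at 1376892_at. In the other pairs r at 1368691_at was 0.29 in HAD1/LAD1, 0.13 in HAD2/LAD2, -0.043 on arrays labelled AA or ANA and -0.17 on those labelled sP or sNP, and at 1376892_at 0.46, -0.51, 0.16 and -0.068 in the same order, none with an adjusted p under 0.05.

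Gria4 at 1396696_at fell with the marker mean on these arrays too, at r = -0.71 and rho = -0.78 (adjusted p 0.0342 and 0.00807), with r = -0.91 without P 10 and NP 8, and 5.99% of all probe sets had an r as far from 0. The other Gria4 probe sets had r = -0.46 at 1369384_at and -0.10 at 1383707_at there, neither with an adjusted p under 0.05. Without P 10 and NP 8 these were -0.85 and 0.089. On the 17 arrays labelled AA or ANA, 1396696_at had r = -0.70 and rho = -0.72 (adjusted p 0.0408 and 0.0239 by permutation). Of all probe sets, 2.26% were as far from 0 as -0.70, and r was -0.56 without AA 13 and AA 9. On the same arrays 1369384_at had r = -0.63 and rho = -0.75 (adjusted p 0.0828 and 0.0192 by permutation). At 1383707_at r was -0.55 and rho -0.61, neither with an adjusted p under 0.05. In the other pairs r at 1396696_at was -0.56 on arrays labelled sP or sNP, -0.34 in HAD2/LAD2 and -0.017 in HAD1/LAD1. None of these had an adjusted p under 0.05. Gria2 at 1368401_at ran the other way in HAD2/LAD2, at r = 0.75 and rho = 0.76 (adjusted p 0.0342 and 0.0166), with r = 0.52 without HAD2 5 and LAD2 20, beside 0.85% of all probe sets as far from 0. Grin3a had r between -0.03 and 0.37 over the 5 pairs, and 0.35 in HAD2/LAD2, with no adjusted p under 0.05. The points of a relation share a technical set, and the part of tissue content in the relations was not tested.

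**Figure D4:**
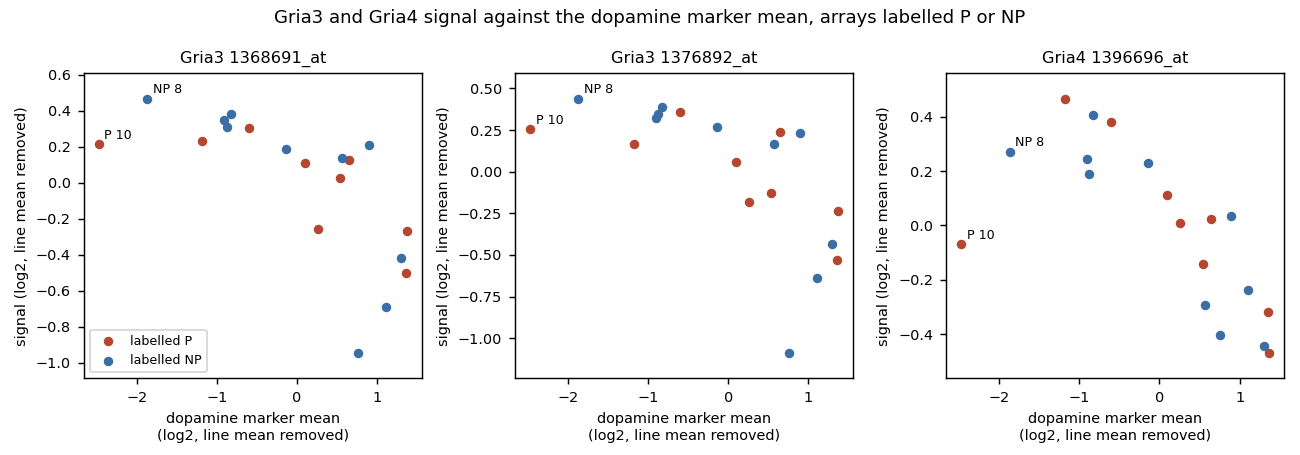
Signal of both Gria3 probe sets and of Gria4 at 1396696_at (vertical axes) against the dopamine marker mean (horizontal axes), both in log2 with line means removed, for 9 arrays labelled P and 10 labelled NP. Signals were lower where the marker mean was higher, with r of -0.69, -0.66 and -0.71.

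**Figure D5:**
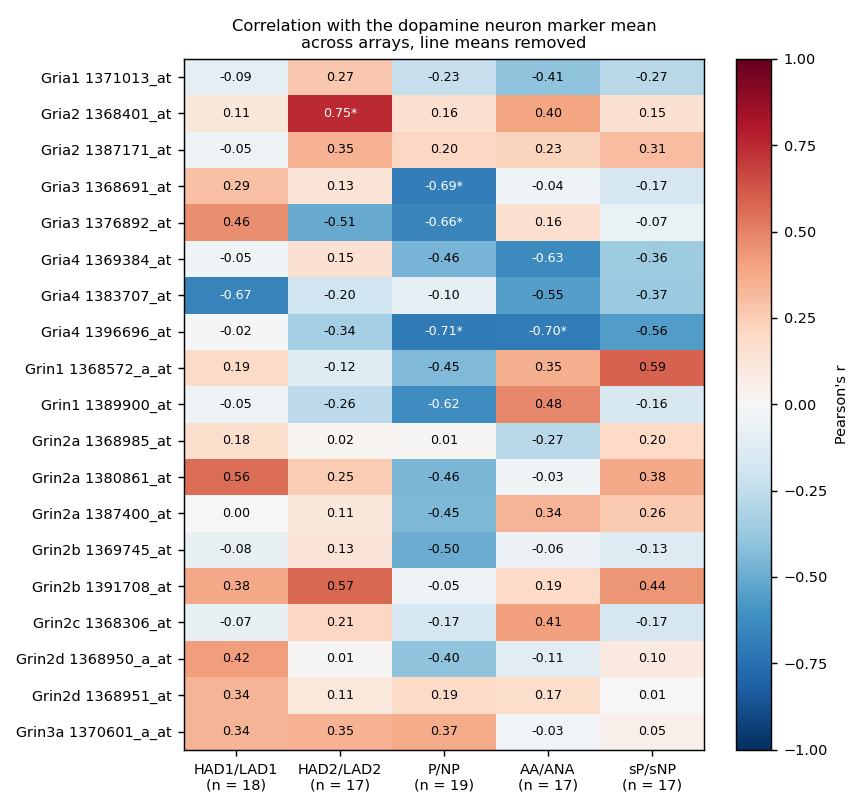
Pearson's r between each subunit probe set (rows) and the dopamine marker mean across the arrays of each pair (columns), line means removed, with asterisks where r and rho both had an adjusted p under 0.05. The 5 asterisks are at Gria2, both Gria3 probe sets and Gria4 at 1396696_at, which has 2.

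Probe sets of the same gene followed each other only in part. Over the 35 HAD and LAD arrays with line means removed, 11 pairs of probe sets of the same gene had r from -0.053 to 0.59, in a comparison chosen after seeing the data. By permutation with 100000 resamples, 3 of the 11 had an adjusted p under 0.05 for r and rho: Gria2 (r = 0.55), Gria4 at 1369384_at and 1396696_at (r = 0.46) and Grin2a at 1380861_at and 1387400_at (r = 0.59). The 2 probe sets of Grin2d had r = -0.053 and those of Grin2b r = 0.062. Grin3a, Gria1 and Grin2c had a single probe set each, so no second probe set could be set beside the Grin3a difference.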

How the data were processed

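Amplified RNA of 91 rat VTA samples was hybridised after a 2-cycle biotin labelling, per the labels' protocols. The authors made the log2 signals of 31099 probe sets with RMA (background correction, quantile normalization, probe summary), per the submitters' processing notes. Which RMA version was used, and on which arrays together, is not stated there. Columns without a sample numbered 0. Of the probe sets, 57 controls were removed. The other 31042 were fitted with limma as 10 line means (lmFit, eBayes, 81 residual df) and no filter on dim probe sets, so that every subunit was tested. For 3 of the 19 subunit probe sets no line mean reached 7.02, which is percentile 40 of all values. High-consumption minus low-consumption differences were taken per pair, then averaged and compared between pairs, with a 4-df F test over the 5. Tests were 2-sided with Benjamini-Hochberg adjustment over the 31042 within a contrast, and a probe set was called at an adjusted p under 0.05. Names came from the platform annotation, with 20826 probe sets of 1 gene, 436 of several and 9780 unnamed. Samples were grouped by the line in their titles, which also name the animal.

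The subunits, partner and marker lists were chosen with earlier results of these data known. Genes outside the subunits are named as up to 4 called probe sets of each list per pair (5 for the astrocyte list under the labels AA and ANA), as called neighbours of Grin3a, and as the 5 genes most like each of the 3 subunit probe sets with the smallest adjusted p. The other probe sets of those genes, Nptxr, Th, Rnf20 and Ppp3r2 were added after values were seen. Technical sets came from Ward clustering of array quantiles cut at 5, a chosen number. Alternatives were filters, normalizations, priors, array weights, technical sets, the pair alone, single-gene adjustment, a replicate block and each array left out. The fit was tested on simulated data. Software comprised matplotlib 3.10.9, pandas 2.3.3, numpy 2.4.6 and Python 3.11.15, with limma 3.58.1 and version 1.17.8 of data.table under R 4.3.3. The number of arrays limits the precision.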

Additional observations from a re-analysis of the deposited data

Results flagged for a closer look

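The Grin3a difference was not the same in all pairs. HAD1/LAD1 minus HAD2/LAD2 was -1.24 on the log2 scale (limma, adjusted p 2.07e-05), and the F test over the 5 pairs gave an adjusted p of 0.000298.

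Single arrays lay far from the rest of their line in 16 of 190 combinations of probe set and line by Dixon's test at the 95% level, where about 9.5 would by chance at 1 in 20; 7 of the 16 were in arrays labelled P or NP and 9 elsewhere. P 10 accounted for Gria1 (10.80), both Gria2 probe sets (13.70 and 12.82), Grin1 at 1389900_at (10.03) and Grin2b at 1391708_at (10.14), each the highest array of its label. Among the arrays labelled NP, Grin1 was highest on NP 2 at 1368572_a_at (10.76) and lowest on NP 4 at 1389900_at (8.35). For Gria2 at 1368401_at the arrays AA 19 (13.57) and ANA 20 (13.60) were the highest of their labels, and both lay in the technical set of the arrays labelled sP and sNP. AA 9 was lowest for Gria2 at 1387171_at (10.996), ANA 6 for Gria3 at 1376892_at (10.56) and AA 13 for Gria4 at 1396696_at (8.74). In the HAD and LAD lines, LAD1 33 was highest for Grin2a at 1368985_at (5.53) and HAD1 23 for Grin2d at 1368951_at (6.37). For Grin3a, LAD1 37 was lowest (6.66) and HAD2 2 highest (8.25); without HAD2 2 the HAD2/LAD2 difference was 0.77 with an adjusted p of 0.000324.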

How the results depend on the processing

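No result changed sign past its threshold. Grin3a was called in HAD2/LAD2 and in the difference between the HAD/LAD pairs under every alternative run, with HAD2/LAD2 differences from 0.77 to 0.94. In HAD1/LAD1 it was called only without LAD1 37, so that the count of subunits called ran from 0 to 1 with an array left out. Adjusted over the 20826 single-gene probe sets, calls were 604 in HAD1/LAD1, 776 in HAD2/LAD2, 490 between arrays labelled AA and ANA, 745 for the HAD/LAD mean, 607 for the HAD/LAD difference, 221 for the mean of 5 pairs and 966 for dependence on the pair, with fewer probe sets tested. With array weights these were 1792 in HAD1/LAD1, 513 for P/NP, 1677 for AA/ANA, 2 for sP/sNP, 2071 for the HAD/LAD mean, 1747 for the HAD/LAD difference, 1215 for the mean of 5 pairs and 3965 for dependence on the pair. Weights brought 2 subunit calls in arrays labelled P and NP, Gria2 at 1387171_at (0.45, adjusted p 0.036) and Grin2b at 1391708_at (0.47, adjusted p 0.0205), and 2 for dependence on the pair, Grin2b and Grin3a; the cause was not tested. AA/ANA gave 591 with the 60th percentile filter (8.58), 335 fitted alone, and 730 to 1405 with an array left out, the most without ANA 20. P/NP gave 0 to 1 with an array left out. With the replicate block on shared animal numbers, P/NP and sP/sNP gave 0 calls each, as without it on the same arrays, with 863 and 999 probe sets at an unadjusted p under 0.05 by limma, against 684 and 880 without the block. Same-numbered arrays had deviation correlations from -0.64 to 0.61 in P/NP (median 0.21) and from -0.29 to 0.20 in sP/sNP (median -0.12). Those above 0.1 numbered 6 of 9 in P/NP and 1 of 8 in sP/sNP. Whether shared numbers mark paired animals was not tested, and the main fit did not use them. The limit is the signal of dim probe sets: 3 of the 19 had no line mean at the 40th percentile, and 6 had none there in the HAD and LAD lines, among them Gria4 at 1369384_at, Grin2d at 1368951_at and Grin2b at 1369745_at.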

Other observations

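The probe sets most like Grin3a over the 35 HAD and LAD arrays, by Pearson's r with line means removed, belonged to Aggf1 (r = 0.77), Myo5a (0.77), Zfp365 (0.75), Cxxc4 (0.75) and Tecpr1 (0.74). Without the 2 arrays farthest from the median these were 0.71, 0.59, 0.58, 0.71 and 0.70, and the values are a description with no test. None of the 5 was called in HAD2/LAD2, where they differed by 0.019 to 0.19 on the log2 scale. In HAD1/LAD1 Myo5a, which encodes a myosin motor of vesicle transport, was lower in HAD1 by a difference of -0.88 with an adjusted p of 0.000721, and the other 4 were not called. For Grin2c the likest were Scap (r = 0.70), Zswim8 (0.69), Ppfia3 (0.68), Zfr2 (0.67) and Fzd8 (0.67), and for Grin2d at 1368951_at Crebrf (0.71), Pitpnm2 (0.70), Smarcc2 (0.69), Fxr2 (0.67) and Zdhhc18 (0.66). None of these 10 was called in either HAD/LAD pair.

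Without P 10 and NP 8, the relation of Gria2 with the dopamine marker mean on the arrays labelled P or NP was r = 0.77 at 1368401_at and r = 0.84 at 1387171_at, against 0.16 and 0.20 with them. Grin2b at 1391708_at had r = 0.71 without these arrays and -0.051 with them. These values were seen after the arrays were left out and were not tested.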
